A study of Mus musculus with 8 samples.

Results

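The genes of gut smooth muscle excitation examined here are 10 genes for calcium and potassium channels, calcium store proteins and muscarinic receptors. They were chosen by name as Chrm3, Chrm2, Cacna1c, Cacna1h, Cacnb2, Itpr1, Ryr2, Pln, Kcnma1 and Kcnmb1, and all 10 had a locus of their own among the 26747 loci of the deposited tables. RNA was sequenced from whole mouse stomachs at embryonic stage E13.5, in 4 libraries labelled YAP5SA mutant and 4 labelled wild type. The mutant genotype is given as Nkx3.2Cre;R26-YAP5SA: Cre recombinase made under the Nkx3-2 gene, which is active in mesenchyme of the stomach and of some other organs, switches on a transgene at the Rosa26 locus. That transgene encodes YAP, a transcriptional coactivator held in check by the Hippo kinases, with the serines that those kinases phosphorylate replaced. The control libraries are labelled only as wild type, and no library is labelled as carrying Cre alone, so the presence of Cre and the making of active YAP cannot be told apart. Strain, sex, litter, zygosity and pooling of embryos are not stated in the labels. The comparison asks how active YAP in stomach mesenchyme goes with the expression of these genes.

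In gut smooth muscle, acetylcholine from enteric neurons acts on muscarinic receptors, and the calcium that then enters through voltage-gated channels or leaves internal stores starts contraction. Stores release calcium through inositol trisphosphate receptors and ryanodine receptors and are refilled by a pump that phospholamban restrains. Bursts of store calcium open large-conductance potassium channels, called BK channels, which draw the membrane back towards rest. These genes are not made by smooth muscle alone: neurons, interstitial cells and striated muscle use several of them. In whole-organ RNA, fewer cells of a type and less RNA per cell cannot be told apart.

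The libraries held 7293556 to 8513116 fragments in YAP5SA and 6328344 to 6919353 in wild type, so every YAP5SA library was deeper. Levels are given as CPM, fragment counts scaled to the size of each library. Yap1 stood at 224 ± 13.46 CPM in YAP5SA and 232 ± 7.46 CPM in wild type (SD, n = 4 each), a value that does not check the transgene, since how its fragments were assigned is not stated. Nkx3-2 was at 79.1 ± 14.5 CPM in YAP5SA and 63.0 ± 10.5 CPM in wild type (edgeR adjusted p = 0.15), and Gt(ROSA)26Sor, the transcript of the locus that carries the transgene, rose to 26.8 ± 2.33 CPM in YAP5SA, against 16.5 ± 4.71 CPM in wild type (edgeR adjusted p = 0.03). Barx1, a transcription factor gene of stomach mesenchyme, was at 158 ± 14.2 CPM in YAP5SA and 171 ± 7.64 CPM in wild type, and the summed level of 7 epithelial loci was 465.1 to 615.2 CPM in YAP5SA and 763.3 to 932.2 CPM in wild type.

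Of the 10 genes, 2 fell in YAP5SA stomachs (Cacna1h and Chrm3), 1 rose (Itpr1) and 7 did not pass the test at an adjusted p of 0.05 (edgeR quasi-likelihood test over 14574 loci, Benjamini-Hochberg). Over all tested loci 18.9% were called, 9.06% as higher and 9.85% as lower. Cacna1h was lower by 0.70 on the log2 scale, Chrm3 lower by 0.67 and Itpr1 higher by 0.36. The same 3 genes were those whose CPM ranges did not overlap between the genotypes, which held for 23.3% of tested loci. All 10 passed the filter on low counts. The log2 fold change was below 0 for 8 of them, with a median of −0.21 against −0.01 over all tested loci. The lowest member was Kcnmb1, with 12 to 35 fragments per YAP5SA library and 24 to 38 per wild type library, and the highest in fragments were Itpr1 and Cacna1h.

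**Figure D1:**
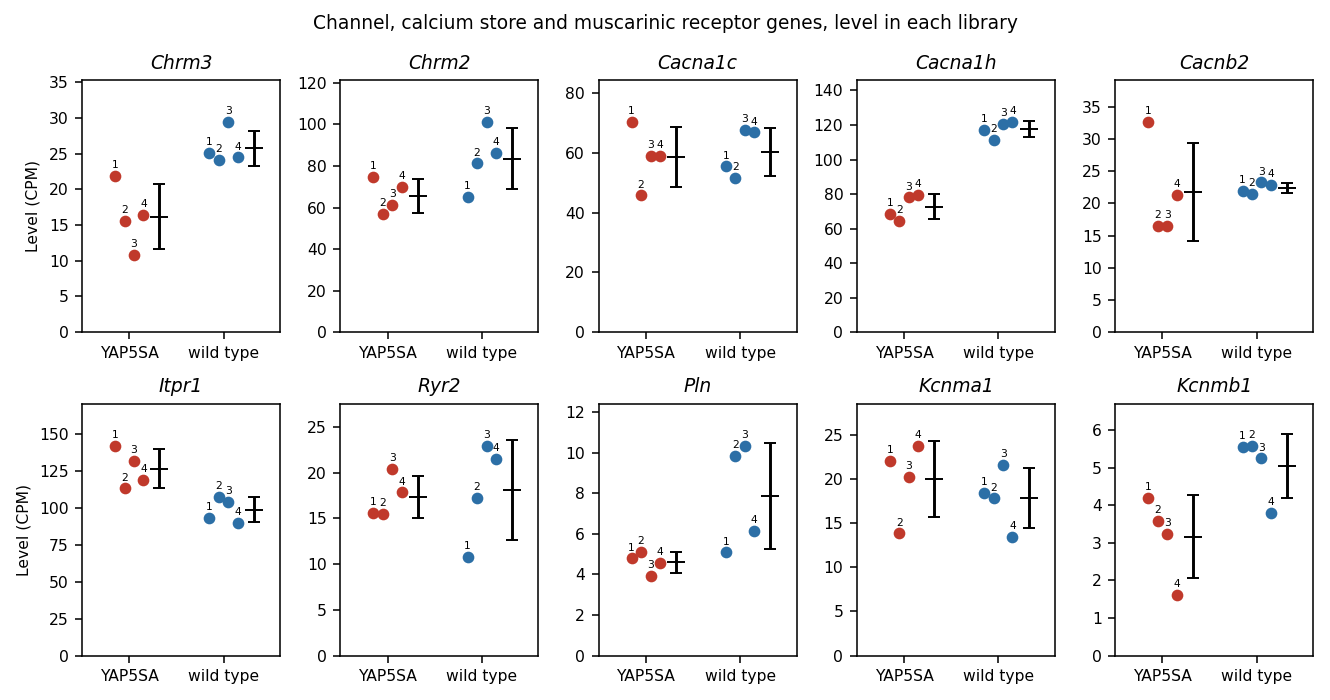
Level of each of the 10 genes in CPM (vertical axes, from 0), 4 YAP5SA libraries in red on the left and 4 wild type libraries in blue on the right of each panel, with library numbers above the points and the mean ± SD in black. The genotypes do not overlap for Cacna1h, Chrm3 and Itpr1, and a single YAP5SA library, at 32.6 CPM, sets the wide spread of Cacnb2.

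The muscarinic receptors are the point where nerve signals reach the muscle. Chrm3 encodes the M3 receptor, which acts through phospholipase C and is the main trigger of contraction in gut muscle, and Chrm2 encodes the M2 receptor, which lowers cyclic AMP and is the more abundant of the pair in adult gut muscle. The 250 bases before their RefSeq starts are shown because the receptors' levels are set against each other below, with the 50 bases nearest the start in capitals (RefSeq sequences, GRCm38.p6, the same assembly as mm10).
Chrm3, chr13:10360804-10361053, minus strand: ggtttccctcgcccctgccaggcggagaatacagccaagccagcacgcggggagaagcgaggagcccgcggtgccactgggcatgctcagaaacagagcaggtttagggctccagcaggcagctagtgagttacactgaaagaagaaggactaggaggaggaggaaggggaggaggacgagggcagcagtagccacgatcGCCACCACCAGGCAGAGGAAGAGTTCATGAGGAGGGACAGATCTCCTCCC
Chrm2, chr6:36387834-36388083, plus strand: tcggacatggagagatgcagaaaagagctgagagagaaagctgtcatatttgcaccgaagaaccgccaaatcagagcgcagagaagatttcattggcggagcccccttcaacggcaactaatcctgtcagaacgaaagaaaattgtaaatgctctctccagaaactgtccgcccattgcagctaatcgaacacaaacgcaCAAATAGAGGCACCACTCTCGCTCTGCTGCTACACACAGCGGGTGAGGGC
Of these bases 61.2% are G or C for Chrm3 and 50% for Chrm2. The promoter table covered 8 of the 10 genes with 11 windows of 300 bases, from 250 before to 50 after a start. It held no window for Cacna1h or Itpr1, so of the called genes only Chrm3 was searched. None of the 11 held a CArG box, the site of serum response factor at smooth muscle genes, and none held the TEAD motif GGAATG, both searched on either strand. Among all 32851 windows, 1.63% held a CArG box and 14.7% the TEAD motif.

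Chrm3 (chromosome 13, 9875486 to 10360847, minus strand, protein-coding; GENCODE M21 on GRCm38) had 21.9, 15.6, 10.8 and 16.4 CPM in YAP5SA libraries 1 to 4, against 25.1, 24.1, 29.4 and 24.5 CPM in wild type libraries 1 to 4. Every YAP5SA library was below every wild type library. On the log2 scale the fold change was −0.67 ± 0.19 (SE, n = 4 each, edgeR adjusted p = 0.03), a level of 0.629 times wild type. With each library left out in turn, the call was lost without YAP5SA replicate 2 (adjusted p = 0.079), 3 (0.051) or 4 (0.07) and without wild type replicate 1 (0.06), 2 (0.064), 3 (0.086) or 4 (0.052), and it was kept without YAP5SA replicate 1 (0.0055).

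Chrm2 (chromosome 6, 36388084 to 36528414, plus strand, protein-coding) had 74.6, 56.8, 61.1 and 69.9 CPM in the YAP5SA libraries, against 65.3, 81.3, 101 and 86.2 CPM in the wild type libraries. Wild type replicate 1 lay within the YAP5SA range, while the other wild type libraries lay above it. A log2 fold change of −0.35 ± 0.13 missed the threshold (edgeR adjusted p = 0.086; 95% interval −0.63 to −0.07). It passed without wild type replicate 1 (0.021) and missed with any other library left out (0.063 to 0.23). Chrm3 relative to Chrm2, as a log2 ratio, averaged −2.04 ± 0.32 in YAP5SA and −1.67 ± 0.20 in wild type (SD, n = 4 each). This difference of −0.36 did not pass an exact two-sided permutation test (p = 0.0857 before and after adjustment over 2 ratios), where 4 libraries against 4 can reach 0.0286 at the smallest. Without YAP5SA replicate 1 the difference was −0.46 (exact unpaired p = 0.0286, the smallest that 4 against 3 allows). With any other library left out that p was 0.05 or more, and the difference came as near 0 as −0.22. Between libraries of the same number the ratio was lower in YAP5SA in 4 of 4 pairs, for which the exact two-sided sign-flip test gave p = 0.125, the smallest that 4 pairs allow.

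Voltage-gated calcium channels let calcium in when the membrane depolarises. Cacna1c encodes the pore of the L-type channel, the main calcium entry path of gut smooth muscle, Cacnb2 an intracellular beta subunit that brings such pores to the membrane, and Cacna1h the pore of a T-type channel, which opens at more negative potentials. Cacna1h (chromosome 17, 25374285 to 25433783, minus strand, protein-coding) had 68.4, 64.5, 78.1 and 79.6 CPM in the YAP5SA libraries, against 117, 111, 121 and 122 CPM in the wild type libraries. The groups were separated by a gap wider than the range of either one. Its log2 fold change was −0.70 ± 0.07 (edgeR adjusted p = 0.00018), a level of 0.617 times wild type, and the call held in all 18 alternative analyses, with values from −0.73 to −0.63.

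Cacna1c (chromosome 6, 118587240 to 119196418, minus strand, protein-coding) ranged from 45.7 to 70.2 CPM in YAP5SA and from 51.6 to 67.6 CPM in wild type, so the groups lay over each other. With −0.04 ± 0.13, the log2 fold change had a 95% interval of −0.33 to 0.24 (edgeR adjusted p = 0.87). Cacnb2 (chromosome 2, 14603088 to 14987908, plus strand, protein-coding) had 32.6, 16.4, 16.5 and 21.3 CPM in the YAP5SA libraries, against 21.9, 21.5, 23.2 and 22.9 CPM in the wild type libraries. YAP5SA replicate 1 was above all wild type libraries and the other YAP5SA libraries were below all of them. The coefficient of variation was 35.1% in YAP5SA and 3.7% in wild type. The log2 fold change was −0.04 ± 0.20 with all libraries (95% interval −0.49 to 0.41, edgeR adjusted p = 0.93) and −0.30 without YAP5SA replicate 1 (0.13). That library, the deepest of the 8, also had the highest YAP5SA level of 6 of the 10 genes, and the part of depth in this was not tested.

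**Figure D2:**
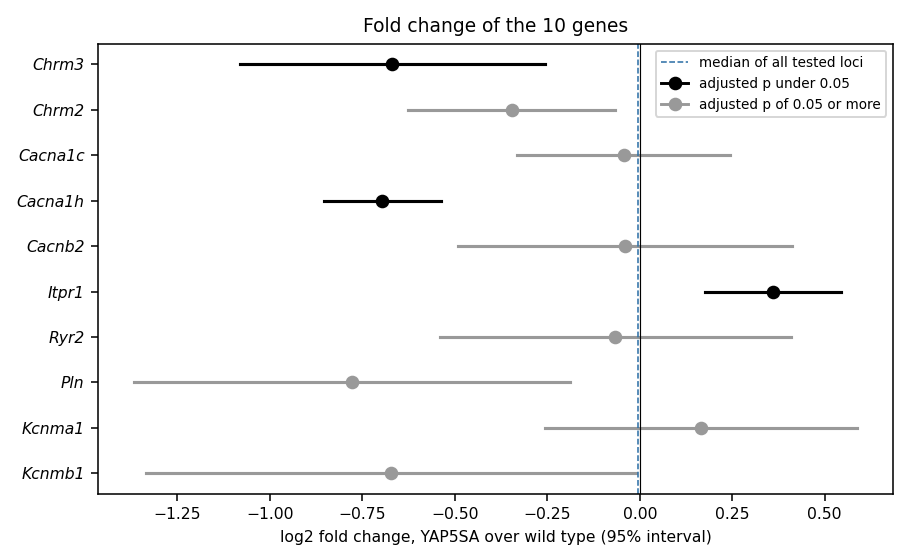
Log2 fold change of each of the 10 genes, YAP5SA over wild type (horizontal axis), with 95% intervals from the edgeR fit over 4 libraries per genotype, black for genes with an adjusted p under 0.05 and grey for the others. Cacna1h has the narrowest interval, −0.85 to −0.54, and that of Kcnmb1 runs from −1.34 to −0.01.

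Calcium stores and their control came next. Itpr1 encodes a receptor for inositol trisphosphate that releases store calcium downstream of muscarinic receptors. It had 142, 113, 132 and 119 CPM in the YAP5SA libraries, against 93.3, 107, 104 and 89.5 CPM in the wild type libraries (chromosome 6, 108213096 to 108551109, plus strand, protein-coding). Every YAP5SA library was above every wild type library. Itpr1 thus had a log2 fold change of 0.36 ± 0.08 (edgeR adjusted p = 0.013), a level of 1.28 times wild type, and the call held in all 18 alternatives, with adjusted p-values from 0.0012 to 0.041.

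Ryr2, which encodes the ryanodine receptor isoform best known from heart muscle, ranged from 15.5 to 20.4 CPM in YAP5SA and from 10.8 to 22.9 CPM in wild type (chromosome 13, 11553102 to 12106945, minus strand, protein-coding). The wild type range enclosed the YAP5SA range, with a log2 fold change of −0.07 ± 0.21 (95% interval −0.54 to 0.41, edgeR adjusted p = 0.88). Pln encodes phospholamban, the inhibitor of the store calcium pump (chromosome 10, 53337667 to 53345987, plus strand, protein-coding). It had 4.79, 5.11, 3.91 and 4.56 CPM in the YAP5SA libraries, against 5.08, 9.85, 10.3 and 6.16 CPM in the wild type libraries. The YAP5SA libraries lay close together and wild type replicate 1 lay among them, while wild type replicates 2 and 3 were the highest of the 8 libraries. Its log2 fold change of −0.78 ± 0.27 missed the threshold (edgeR adjusted p = 0.068). It passed without wild type replicate 1 (0.031) and missed with any other library left out (0.063 to 0.19). Of the annotated exonic bases of Pln, at most 64.7% are shared with Cep85l or Gm47644, with any base shared with both counted for each. Whether counting used strand is not stated, so the 29 to 69 fragments of Pln per library may include fragments of these genes.

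BK channels are built from a pore, encoded by Kcnma1, and auxiliary beta subunits, of which the one encoded by Kcnmb1 is typical of smooth muscle and raises the channel's sensitivity to calcium. The 250 bases before their RefSeq starts are printed for the pair that is compared below, again with the 50 nearest bases in capitals.
Kcnmb1, chr11:33962763-33963012, plus strand: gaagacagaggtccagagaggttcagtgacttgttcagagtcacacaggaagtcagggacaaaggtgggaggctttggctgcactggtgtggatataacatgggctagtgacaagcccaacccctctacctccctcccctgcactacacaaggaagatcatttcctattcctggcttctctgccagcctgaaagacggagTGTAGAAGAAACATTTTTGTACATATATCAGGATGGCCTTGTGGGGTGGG
Kcnma1, chr14:24004206-24004455, minus strand: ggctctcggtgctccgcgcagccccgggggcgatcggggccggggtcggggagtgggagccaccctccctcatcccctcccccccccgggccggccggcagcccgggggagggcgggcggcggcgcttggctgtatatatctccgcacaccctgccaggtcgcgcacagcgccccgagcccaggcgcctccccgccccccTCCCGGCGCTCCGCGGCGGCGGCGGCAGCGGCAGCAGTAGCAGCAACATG
Of these bases 50.8% are G or C for Kcnmb1 and 79.2% for Kcnma1, whose RefSeq start lies inside the span that GENCODE gives the gene.

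Kcnmb1 (chromosome 11, 33963013 to 33973641, plus strand, protein-coding) had 4.19, 3.59, 3.24 and 1.61 CPM in the YAP5SA libraries, against 5.56, 5.59, 5.25 and 3.79 CPM in the wild type libraries. YAP5SA replicate 1 was above wild type replicate 4, the only overlap between the groups. Its log2 fold change of −0.67 ± 0.30 did not pass (95% interval −1.34 to −0.01, edgeR adjusted p = 0.15), nor did it in any of 18 alternatives. The gene lies within Kcnip1 on the opposite strand with 0 shared exonic bases. Kcnip1, which encodes an auxiliary protein of A-type potassium channels and is described because of this position, fell to 2.84 ± 0.80 CPM in YAP5SA, against 13.2 ± 3.94 CPM in wild type (SD, n = 4 each; log2 fold change −2.22 ± 0.29, edgeR adjusted p = 0.00073). Whether unspliced Kcnip1 fragments reach the Kcnmb1 locus was not tested.

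Kcnma1 (chromosome 14, 23289431 to 24014491, minus strand, protein-coding) had 22.0, 13.8, 20.2 and 23.7 CPM in the YAP5SA libraries, against 18.4, 17.8, 21.6 and 13.4 CPM in the wild type libraries. The groups overlapped over most of their ranges, and the log2 fold change was 0.17 ± 0.19 (95% interval −0.26 to 0.59, edgeR adjusted p = 0.62). The log2 ratio of Kcnmb1 to Kcnma1 averaged −2.60 ± 0.77 in YAP5SA and −1.76 ± 0.16 in wild type (SD, n = 4 each). YAP5SA replicate 4 stood lowest at −3.67 and YAP5SA replicate 2 at −1.86 lay among the wild type libraries. The difference of −0.84 did not pass the exact two-sided permutation test (p = 0.0571, adjusted over 2 ratios 0.0857). With a library left out it ranged from −1.08, without YAP5SA replicate 2, to −0.48, without YAP5SA replicate 4. The exact unpaired p without YAP5SA replicate 2 was 0.0286, the smallest that 4 against 3 allows. It was 0.05 or more with any other library left out. Within pairs of the same number the ratio was again lower in YAP5SA in 4 of 4 (exact sign-flip p = 0.125).

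Unnamed loci were found inside the annotated untranslated regions of both large pores. A pair of them in Kcnma1 (chromosome 14, 23292388 to 23293754 and 23293922 to 23295357) had 2.70 ± 1.31 and 1.73 ± 0.94 CPM in YAP5SA, against 2.93 ± 0.82 and 2.06 ± 0.34 CPM in wild type (SD, n = 4 each). One in Cacna1c (chromosome 6, 118587273 to 118589061) had 5.70 ± 1.89 CPM in YAP5SA and 7.05 ± 0.28 CPM in wild type. None of the 3 passed in a fit with unnamed loci included, which was added after the data were seen (edgeR adjusted p = 0.91, 0.73 and 0.45).

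Per length, the order of the genes was compared on the authors' FPKM, which scales fragments by transcript length and by depth. Chrm2 was highest in both genotypes, at 16.1 ± 0.85 FPKM in YAP5SA and 20.3 ± 4.2 FPKM in wild type (SD, n = 4 each). In YAP5SA Itpr1 followed at 13.2 ± 1.22 FPKM and then Cacna1h at 9.34 ± 0.89 FPKM, with no overlap between their ranges. In wild type Cacna1h came before Itpr1, at 14.9 ± 0.60 against 10.3 ± 0.93 FPKM, also with no overlap. In YAP5SA the neighbouring pairs from Cacna1h through Cacna1c, Cacnb2, Chrm3 and Kcnma1 down to Pln overlapped. Pln was at 2.10 ± 0.22 FPKM in YAP5SA and 3.57 ± 1.19 FPKM in wild type. Ryr2 and Kcnmb1 were lowest in both genotypes and overlapped in each, at 1.03 ± 0.14 and 0.78 ± 0.27 FPKM in YAP5SA and 1.06 ± 0.32 and 1.24 ± 0.21 FPKM in wild type.

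Among 15 tested loci of other voltage-gated calcium channel subunits, 3 rose and 2 fell, with a median log2 fold change of −0.15. Cacna1s, the L-type pore of skeletal muscle, had 39.3, 17.8, 21.05 and 17.98 CPM in the YAP5SA libraries, against 0.636, 1.18, 1.1995 and 0.474 CPM in the wild type libraries. All YAP5SA libraries were far above all wild type libraries (log2 fold change 4.78 ± 0.39, edgeR adjusted p = 5.5e-05). Cacna2d2, an alpha2-delta subunit gene, rose to 42.4 ± 10.1 CPM in YAP5SA, against 7.002 ± 3.76 CPM in wild type (SD, n = 4 each; 2.59 ± 0.31 on the log2 scale). Cacna1g, a T-type pore like Cacna1h, rose by 0.22 ± 0.05 (edgeR adjusted p = 0.016) at 264 ± 6.93 CPM in YAP5SA and 226 ± 14.9 CPM in wild type, while Cacna1h fell. Cacng4, a gamma subunit gene, fell by 0.51 ± 0.11. A locus of Cacna1a, a neuronal pore gene, fell by 0.32 ± 0.08 and lost its call in 8 of 18 alternatives (adjusted p 0.052 to 0.69). The other tested Cacna1a locus did not pass and had the opposite sign, at 3.08 ± 0.95 CPM in YAP5SA and 1.09 ± 0.75 CPM in wild type with no overlap (log2 fold change 1.52 ± 0.57, edgeR adjusted p = 0.096), so no direction is given for the gene.

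Cacna1s is a striated muscle gene, and of 10 tested striated muscle markers 5 rose and 0 fell (edgeR; median log2 fold change 1.15). The summed level of the 13 loci of that list was 55.7 to 127.5 CPM in YAP5SA and 39.64 to 89.77 CPM in wild type. None of these loci was listed at 0 in all libraries, and the listed genes Myh3, Myh6, Myh7 and Myh8 had no locus of their own. Myod1 and Myog, the myogenic regulators, rose by 3.56 ± 0.74 and 2.76 ± 0.60, the sarcomere gene Actn2 by 1.84 ± 0.42, and the troponin genes Tnnc1 and Tnni1 by 1.42 ± 0.35 and 0.98 ± 0.30. Myod1 had 2.28, 8.15, 17.7 and 10.2 CPM in the YAP5SA libraries, against 2.22, 0.44, 0.45 and 0.158 CPM in the wild type libraries. Among YAP5SA libraries, Myod1, Myog, Actn2 and Tnni1 were lowest in replicate 1 and Tnnc1 in replicate 2. Cacna1s was instead highest in YAP5SA replicate 1. Actc1, the most abundant of the list, was at 23.6 ± 8.75 CPM in YAP5SA and 31.6 ± 14.7 CPM in wild type. The part of striated muscle cells in the Cacna1s value was not tested.

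Of 25 tested loci of other potassium channels, 7 fell and 2 rose (median log2 fold change −0.35). Kcnd3, the pore of A-type channels that bind proteins such as the Kcnip1 product, had 47.4, 36.8, 47.6 and 52.2 CPM in the YAP5SA libraries, against 104, 120, 112 and 141 CPM in the wild type libraries. The groups were far apart (−1.37 ± 0.12, edgeR adjusted p = 6.9e-05). Kcnj11, a pore of channels closed by ATP, fell by 1.57 ± 0.32 and the background channel gene Kcnk3 fell by 1.54 ± 0.33. Kcnq5, of the M-current family, rose by 0.57 ± 0.14, and its call was lost with limma on log2(FPKM + 0.1) (adjusted p = 0.053).

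Of 27 tested loci for calcium stores and transport, 5 rose and 6 fell (median log2 fold change 0.07). The store release genes did not move as a block. Ryr3 fell to 9.64 ± 1.86 CPM in YAP5SA, against 26.1 ± 1.5 CPM in wild type (SD, n = 4 each; −1.44 ± 0.15, edgeR adjusted p = 0.00019), where Ryr2 did not pass. Itpr3, named after its values were seen as a relative of Itpr1, fell by 0.68 ± 0.12 (edgeR adjusted p = 0.0027) at 109 ± 19.6 CPM in YAP5SA and 175 ± 13.3 CPM in wild type, while Itpr1 rose. Casq2, a store calcium buffer of cardiac muscle, rose by 2.64 ± 0.30, and the skeletal muscle pump gene Atp2a1 by 1.51 ± 0.33. The pump gene Atp2a3 fell by 0.92 ± 0.14 and Mrvi1, whose product links cyclic GMP signals to store release, by 0.59 ± 0.08. A locus of the cyclic GMP-dependent kinase gene Prkg1 rose by 0.52 ± 0.09, the plasma membrane pump gene Atp2b1 by 0.27 ± 0.06 and the store sensor gene Stim1 by 0.20 ± 0.06. The other tested Prkg1 locus did not pass (log2 fold change 1.09 ± 0.59, edgeR adjusted p = 0.24), and an untested Prkg1 locus was at 0 CPM in all libraries. Stim1 lost its call in 5 of 18 alternatives (adjusted p 0.052 to 0.12). The pump that phospholamban restrains, Atp2a2, stood at 309 ± 10.6 CPM in YAP5SA and 284 ± 12.6 CPM in wild type (edgeR adjusted p = 0.12).

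**Figure D3:**
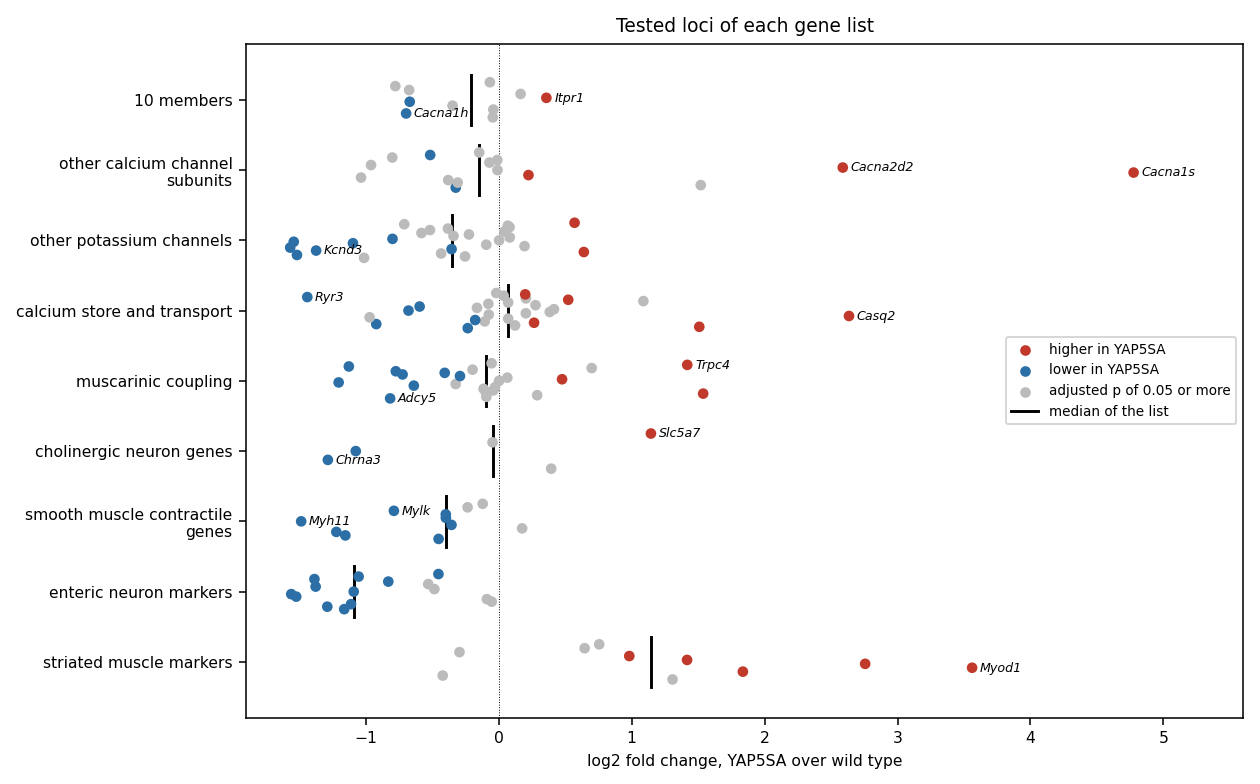
Log2 fold change of every tested locus, YAP5SA over wild type (horizontal axis), for 9 gene lists in rows, with calls at an adjusted p under 0.05 in red (higher in YAP5SA) and blue (lower) and the list median as a black bar. Medians run from −1.09 for enteric neuron markers to 1.15 for striated muscle markers, and the 10 channel and receptor genes lie at −0.21.

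Among 23 tested loci of muscarinic coupling, 8 fell and 3 rose (median log2 fold change −0.10). Plcb4, a phospholipase that makes inositol trisphosphate, fell by 0.72 ± 0.09 and Plcb1 rose by 0.48 ± 0.11. The adenylyl cyclase gene Adcy5, of the class that M2 receptors inhibit, fell to 42.0 ± 6.06 CPM in YAP5SA, against 74.0 ± 1.59 CPM in wild type (SD, n = 4 each; −0.82 ± 0.09, edgeR adjusted p = 0.00033). Trpc4, a cation channel that muscarinic receptors open in gut muscle, had 26.5, 33.2, 29.5 and 21.5 CPM in the YAP5SA libraries, against 8.26, 10.4, 14.7 and 7.90 CPM in the wild type libraries. All YAP5SA libraries were higher (1.42 ± 0.21, edgeR adjusted p = 0.0012). Its relative Trpc6 was at 8.29 ± 0.32 CPM in YAP5SA and 8.60 ± 0.95 CPM in wild type (edgeR adjusted p = 0.87). The G protein gene Gnaq, which couples M3 receptors to phospholipase C, was at 178 ± 6.31 CPM in YAP5SA and 178 ± 13.3 CPM in wild type. Chrm5, a muscarinic receptor gene of neurons, rose by 1.54 ± 0.44 (edgeR adjusted p = 0.034) at 2.87 to 9.12 CPM in YAP5SA and 1.11 to 2.999 CPM in wild type, overlapping ranges, and it lost its call in 6 of 18 alternatives (0.051 to 0.086).

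The nerve side of the synapse was read from 5 tested cholinergic neuron genes, of which 1 rose and 2 fell. Slc5a7, the choline transporter, rose by 1.15 ± 0.19, and of the nicotinic receptor genes, Chrna3 fell by 1.28 ± 0.15 and Chrnb4 fell by 1.07 ± 0.22. Chat, which makes acetylcholine, was at 1.95 ± 1.18 CPM in YAP5SA and 1.5 ± 0.58 CPM in wild type (edgeR adjusted p = 0.62). Enteric neuron markers were lower in the same libraries: 11 of 15 tested loci fell and 0 rose, and their summed level was 450.3 to 523.5 CPM in YAP5SA and 745.2 to 893.5 CPM in wild type. Tubb3, a neuronal tubulin gene, was at 43.7 ± 3.56 CPM in YAP5SA and 90.8 ± 6.18 CPM in wild type, and Ret, a receptor of neural crest cells, at 48.0 ± 12.6 CPM in YAP5SA and 124.9 ± 13.97 CPM in wild type. A locus of Hand2, also made by mesenchyme, was at 116 ± 10.7 CPM in YAP5SA and 120.2 ± 5.15 CPM in wild type. Interstitial cell markers (Kit, Ano1 and Etv1) fell in 3 of 3, with a sum of 165.9 to 223.9 CPM in YAP5SA and 332.9 to 371.7 CPM in wild type. In the other lists, 7 of 8 glial and 7 of 7 epithelial loci fell, 6 of 6 macrophage loci rose, 1 of 7 endothelial loci rose and 1 of 4 mesothelial loci fell, and no marker of these lists was at 0 in all libraries; Krt8 and Cd68 had no locus of their own. The part of any of these cells in the values of Cacna1h, Chrm3 and Itpr1 was not tested.

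Smooth muscle contractile genes were set beside the 10 genes, since gut smooth muscle uses both, although other cells also use several of the 10. Of 11 tested contractile loci 8 fell and 0 rose (edgeR, median log2 fold change −0.40), with a summed level of 926.7 to 1160 CPM in YAP5SA and 1669 to 1818 CPM in wild type. Myh11, the smooth muscle myosin, had 209, 192, 155 and 96.7 CPM in the YAP5SA libraries, against 439, 464, 477 and 447 CPM in the wild type libraries, with every YAP5SA library lower. Acta2, smooth muscle actin, fell by 0.45 ± 0.06, and Mylk, the kinase that calcium and calmodulin switch on, fell by 0.79 ± 0.05. Each of the 10 genes was then expressed per library as log2 CPM minus the mean log2 CPM of 9 contractile genes with a single locus. Itpr1 stood 0.47 ± 0.17 above that mean in YAP5SA and at −0.53 ± 0.18 in wild type (SD, n = 4 each), a difference of 0.99 with no overlap. Cacnb2 also did not overlap, with a difference of 0.54. Both had the smallest possible exact p of 0.0286, and 0.143 after adjustment over the 10 genes, so none of the 10 passed. Kcnma1 (0.79), Cacna1c (0.59), Ryr2 (0.62) and Chrm2 (0.30) had differences above 0 on this relative scale, with overlapping libraries and exact p-values from 0.0571 to 0.229. The differences of Cacna1h (−0.06), Chrm3 (−0.06), Kcnmb1 (−0.05) and Pln (−0.05) were near 0 and within the spread of their libraries. The same contractile mean was subtracted for all 10 genes, so its own difference between the genotypes enters every one of these values, and the sign of these 4 depends on which contractile genes are taken.

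**Figure D4:**
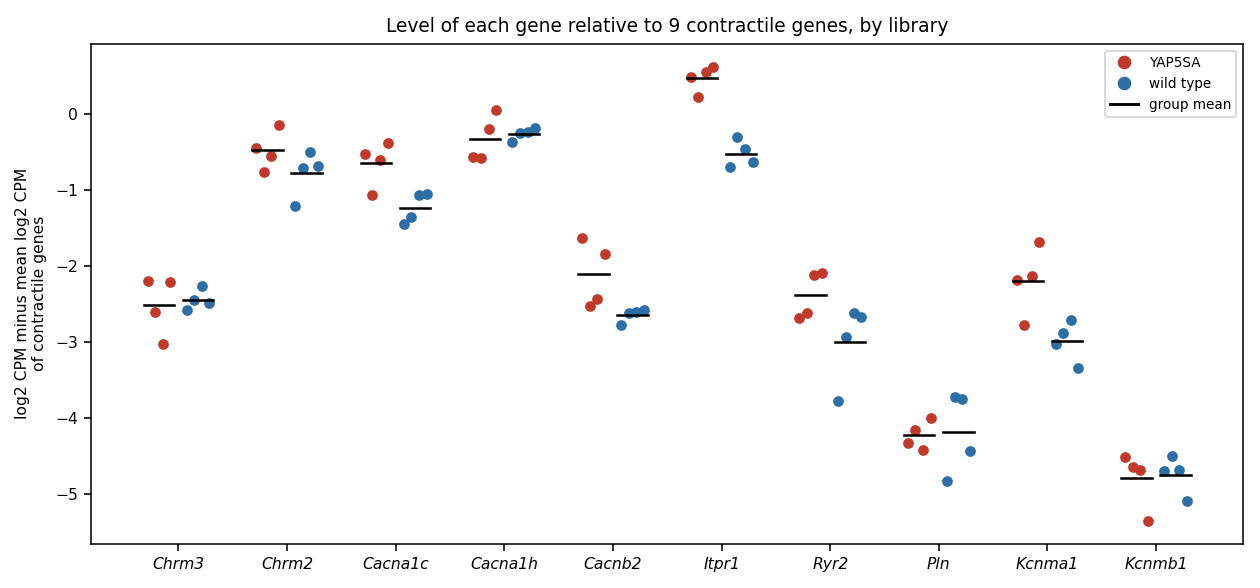
Level of each of the 10 genes relative to 9 smooth muscle contractile genes (vertical axis, log2 CPM of the gene minus the mean log2 CPM of the 9), 4 YAP5SA libraries in red and 4 wild type libraries in blue, with group means as black bars. The 4 YAP5SA libraries of Itpr1 lie above its 4 wild type libraries, and Cacna1h, Chrm3, Kcnmb1 and Pln have nearly level means.

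The genes whose profiles were most like those of the 3 called genes were sought among 12928 loci with a mean of at least 5 CPM, by the root mean square difference of centred log2 CPM over the 8 libraries. For Cacna1h these were Foxf1a (0.0666), Etnk2 (0.0781) and Pitx1 (0.0864), of which Foxf1a and Pitx1 encode transcription factors of gut and stomach mesenchyme. For Itpr1 they were Naf1 (0.06), Clcn5 (0.0604) and Akr1b8 (0.0654), and for Chrm3 they were Rnf128 (0.129), Sgip1 (0.159) and Adap1 (0.16). Of these, Akr1b8 and Adap1 did not pass the test themselves (edgeR adjusted p = 0.199 and 0.081). The nearest profile was farther from Chrm3 than from Cacna1h or Itpr1. Chrm3 also had fewer fragments, 80 to 196 per library, against 467 to 805 for Cacna1h and 567 to 1184 for Itpr1. The part of counting noise in these distances was not tested.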

How the data were processed

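Total RNA of whole stomachs was extracted with Trizol and made into Illumina TruSeq libraries, per the labels' protocols. TopHat2 2.0.9, Cufflinks 2.2.1 and Cuffdiff with build mm10 are named by the submitters' processing notes, with no role or order; read filters, duplicates and strand use are not stated there. The deposited table holds, per the file headers, raw fragments per locus and library, which are estimated counts (10.6% to 11.0% of values were not whole), and FPKM scaled by the authors. The deposited group FPKM equalled the mean of the 4 libraries. A deposited table of counts per genotype stayed unused. The table numbers libraries from 0 and the labels from 1, and 1 was added to match them. The labels do not say whether libraries are separate embryos, so p-values measure the spread between libraries. No pair of libraries of a genotype agreed within counting error (chi-square per degree of freedom at least 2.29).

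Fragments were rounded, and 3582 loci without a gene name (1.85% to 1.97% of fragments) were kept from library sizes and tests. The 23165 named loci were filtered with filterByExpr (at least 10 fragments in enough libraries and 15 in total), scaled by TMM factors and tested with edgeR 4.0.16 in R 4.3.3 (robust quasi-likelihood, genotype only, two-sided, Benjamini-Hochberg over all 14574 tested loci). On data simulated for YAP5SA against wild type over 14473 loci, this recovered 86% of 2-fold and 65.3% of 1.5-fold changes with 2.6% false calls. The simulation changed only 200 loci and gave each locus the average spread for its level. In the real data 18.9% of tested loci were called, so these rates may not carry over. Alternatives were DESeq2 1.42.0, limma 3.58.1 (voom, and log2 FPKM with a pseudocount of 1 or 0.1), other library-size factors, other filters, the replicate block, unnamed loci included (added later) and leaving out each library, 18 in all for each gene. Ratios used log2 CPM with a prior count of 2 and exact permutation over 70 divisions. Same-numbered libraries deviated together (correlation 0.141 to 0.22 in 4 of 4 pairs). Libraries of different numbers were not compared in this way, and the labels do not state a pairing. The main fit and the permutation tests were therefore unpaired, and only the replicate block and the sign-flip test treat the numbers as pairs. Members and lists were chosen with earlier results of these data known. Of each list, up to 4 genes with the smallest p were named, plus members behind counts of 5 or fewer; of markers for other cells, the 3 most abundant could be named. Kcnip1, Itpr3, Atp2a2, Gnaq and Trpc6 were named after their values were seen. Some genes that this rule would name are not reported here.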

Additional observations from a re-analysis of the deposited data

Results flagged for a closer look

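The log2 ratio of Chrm3 to Chrm2 was −1.37 in wild type replicate 1 and −1.74, −1.77 and −1.81 in the other wild type libraries, so that library stood apart. In the same library Cacnb2 was at −2.78 relative to the contractile genes, against −2.62, −2.61 and −2.59 in the other wild type libraries. With 44 groups of 4 libraries examined in this way, chance would flag about 1 in 20. In data outside the main comparison, an unnamed locus of 656 bases, 190 bases upstream of Itpr1 (chromosome 6, 108212251 to 108212906, mm10), had 1.98 ± 0.55 CPM in YAP5SA and 0.922 ± 0.29 CPM in wild type (SD, n = 4 each), a log2 fold change of 1.10 ± 0.31 (edgeR adjusted p = 0.037 with unnamed loci included in the fit).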

How the results depend on the processing

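Of the 10 genes 3 were called under every change of tool, factor, filter and under the replicate block, and 2 to 4 with a library left out, of which 1 to 3 were lower in YAP5SA. The fit with unnamed loci, chosen after seeing the data, also called 3. Loci changed over all genes numbered 2757, against 2032 to 2805 with a library left out and 3035 with the replicate block, which changed no call of the 10 genes. Calls of lower calcium channel subunits numbered 1 on either FPKM scale and 1 to 6 with a library left out, against 2, and those of higher potassium channels 1 with limma on log2(FPKM + 0.1), against 2. Leaving out a library moved log2 fold changes near 0 across 0: that of Cacna1c ranged from −0.137 to 0.076 (above 0 without YAP5SA replicate 2, and at 0.023 and 0.007 without wild type replicates 3 and 4), that of Cacnb2 from −0.299 to 0.091 (0.072 without YAP5SA replicate 3), and that of Ryr2 from −0.235 to 0.076 (0.004 without YAP5SA replicate 2 and 0.025 without wild type replicate 4). Relative to Myh11 alone, 10 genes passed, against 0 with the 9 contractile genes, which says nothing about the 10 genes themselves: Myh11 fell further than any of them, and its fall enters every value. There Kcnmb1 was 0.858, Cacna1h 0.844, Chrm3 0.841 and Pln 0.857. On log2(FPKM + 1), Kcnmb1 was 0.283, Chrm3 0.018 and Pln 0.095, and Kcnmb1 was 0.022 with a prior count of 5. With a library left out, Kcnmb1 ranged from −0.162 to 0.139, Cacna1h from −0.183 to 0.024, Chrm3 from −0.168 to 0.108 and Pln from −0.262 to 0.107. The genotype difference in the ratio of Kcnmb1 to Kcnma1 ranged from −1.08 to −0.48 and that in the ratio of Chrm3 to Chrm2 from −0.46 to −0.22 with a library left out. The cause was not tested. Kcnmb1 and Pln had the fewest fragments of the 10 genes, 12 to 69 per library, and the part of depth in their values was not tested.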
